A study of Mus musculus with 4 samples.

Results

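The 6 actin genes of the mouse, Acta1, Actc1, Acta2, Actg2, Actb and Actg1, were followed through 4 RNA-seq libraries of C2C12, a mouse myoblast line that fuses into multinucleated myotubes when serum is withdrawn. A gene was a member when its symbol was the identifier of an entry, and all 6 were found with status OK in every library, among 24850 named entries in the total RNA tables and 24992 in the polyA tables. The study asked how RNAs made at muscle enhancers act during differentiation and whether hnRNPL, an RNA-binding protein, takes part. Total RNA depleted of rRNA was sequenced from myoblasts (MB) harvested at -24 h relative to the change to differentiation medium (DM) and from myotubes (MT) at 72 h in DM. PolyA RNA was sequenced at 48 h in DM from myotube cultures given siRNA against hnRNPL (si-hnRNPL) or a control siRNA (si-NC). There was 1 library per condition, so a difference between libraries could not be set against the spread of replicates and no test was made.

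Actin monomers polymerise into the filaments that make up the cortex and stress fibres of every cell and the thin filaments of muscle. Mammals encode actin in a small gene family whose proteins are nearly alike: Acta1 and Actc1 encode the skeletal and cardiac alpha-actins of striated muscle, Acta2 and Actg2 the alpha- and gamma-actins of smooth muscle, and Actb and Actg1 the cytoplasmic beta- and gamma-actins. Developing skeletal muscle is known to use the cardiac and smooth muscle alpha-actins before the skeletal form dominates. Serum response factor (SRF) binds the CArG box found in front of many actin genes, and its MRTF coactivators are held back by monomeric actin.

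The promoters are shown first because the CArG box is the regulatory element that the family is known for. The sequences are the 250 bases before the transcript start in RefSeq (GRCm38.p6, minus strand). Exact matches to the CArG pattern, CC then 6 bases of A or T then GG, are in capitals. A near match with a G or C among those 6 bases, such as ccctatatgg in Actc1 and Acta2, was not counted. Entries for 4 of the 6 genes matched the RefSeq table. Acta1 lies at chr8:123894776-123895025, Actc1 at chr2:114052876-114053125, Acta2 at chr19:34255374-34255623 and Actg1 at chr11:120348496-120348745. Actb and Actg2 are named only.
Acta1: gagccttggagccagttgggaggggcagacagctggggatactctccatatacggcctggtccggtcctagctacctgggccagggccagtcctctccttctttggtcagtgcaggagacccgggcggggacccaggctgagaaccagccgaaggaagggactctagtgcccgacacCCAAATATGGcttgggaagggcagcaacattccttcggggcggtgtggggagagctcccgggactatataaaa
Actc1: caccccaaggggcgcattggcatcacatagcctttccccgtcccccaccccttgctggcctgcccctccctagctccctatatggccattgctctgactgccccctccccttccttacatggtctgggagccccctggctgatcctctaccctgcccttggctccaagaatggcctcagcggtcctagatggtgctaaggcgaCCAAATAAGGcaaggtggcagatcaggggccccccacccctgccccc
Acta2: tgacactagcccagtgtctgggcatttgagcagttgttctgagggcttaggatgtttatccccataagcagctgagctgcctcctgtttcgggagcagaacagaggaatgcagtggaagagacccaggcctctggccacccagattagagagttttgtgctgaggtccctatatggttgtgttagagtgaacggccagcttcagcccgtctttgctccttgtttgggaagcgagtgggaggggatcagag
Actg1: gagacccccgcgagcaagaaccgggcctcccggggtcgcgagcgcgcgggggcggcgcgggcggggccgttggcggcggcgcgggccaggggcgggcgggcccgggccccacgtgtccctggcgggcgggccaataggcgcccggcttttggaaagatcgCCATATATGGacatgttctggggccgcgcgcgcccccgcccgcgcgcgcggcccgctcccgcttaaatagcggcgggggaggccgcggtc

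A CArG box began 73 bases before the start of Acta1 (CCAAATATGG), 47 bases before that of Actc1 (CCAAATAAGG) and 90 bases before that of Actg1 (CCATATATGG). The same search, on both strands, matched 1.47% of 32851 mouse promoter windows of this length. All 4 windows were also searched for the E-box of myogenic factors (CANNTG) and for a TATA element (TATAAA), for which the variant written TATATA was counted too. Acta1 held 2 E-boxes, at 238 and 221 bases before the start, Acta2 held 3, Actg1 held 1 and Actc1 held none, while 66.2% of all windows held at least 1. A TATA match was found in Acta1 alone among these 4, in 2 overlapping positions 9 and 7 bases before the annotated start, against 15.6% of all windows. Both genes that were higher in MT, Acta1 and Actc1, held a CArG box, and so did Actg1, which was lower there as described next.

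**Figure D1:**
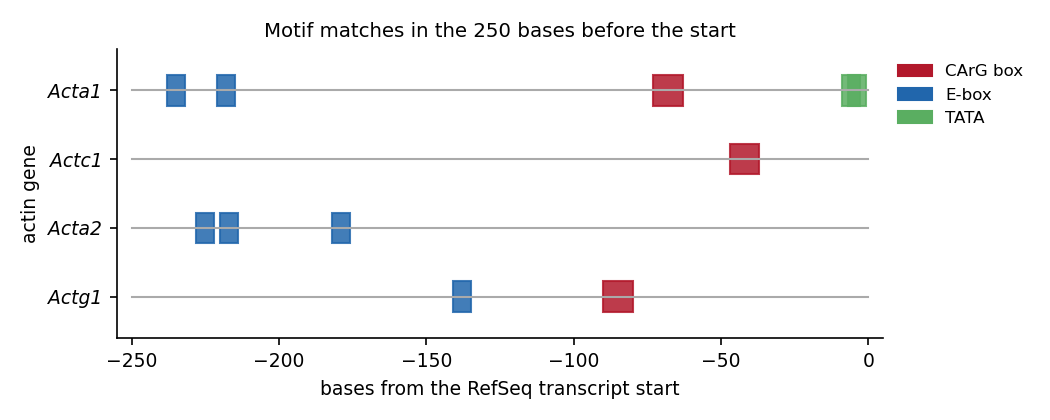
Matches to 3 motifs in the 250 bases before the RefSeq transcript start of 4 actin genes, with the distance from the start in bases on the horizontal axis and 1 gene per row. The CArG boxes of Acta1, Actc1 and Actg1 began 73, 47 and 90 bases before the start; a match is a description and not a measured binding site.

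The genes lie on different chromosomes and each is transcribed from the minus strand. In the files' build (mm9) Acta1 was placed at chr8:126415658-126418675, Actc1 at chr2:113873025-113878547, Acta2 at chr19:34314826-34329863, Actg2 at chr6:83462903-83486245, Actb at chr5:143664796-143668433 and Actg1 at chr11:120207004-120209798 in the total RNA tables. The coding transcripts of the GENCODE annotation have 7 exons in Acta1 and Actc1, 9 in Acta2 and Actg2, and 6 in Actb and Actg1. The proteins are 375 to 377 residues long and differ little. Acta2 and Actg2 share 374 of 376 aligned residues, Acta1 and Actc1 share 373 of 377, and Actb and Actg1 share 371 of 375, whereas Acta1 and Actb share 351 of 375. The coding sequences differ more, with 81.9% to 88.7% of bases identical between pairs, and the transcripts were therefore compared window by window.

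That separation was not equal for all members. Of the 36-base windows of each transcript, the shortest read kept by the authors, 0.209% in Actc1, 0.231% in Actg2, 1.20% in Acta2, 3.33% in Acta1, 4.96% in Actg1 and 5.78% in Actb recurred exactly in another actin transcript. Copies elsewhere in the genome were a larger matter for the cytoplasmic genes. In Actg1, 97.4% of 1917 windows had an exact copy in mm9 outside the 6 genes, spread over 24 places, and in Actb 31.8% of 1885 windows did, over 41 places. In each other actin gene at most 3.19% of windows did. The place with the most copies, chr4:103235930-103237834, repeated 1756 of the windows of Actg1 and no entry of the tables lay there. How fragments that map to several places were counted is not given in the sources used here, so the level of Actg1, and to a lesser degree that of Actb, is uncertain.

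**Figure D2:**
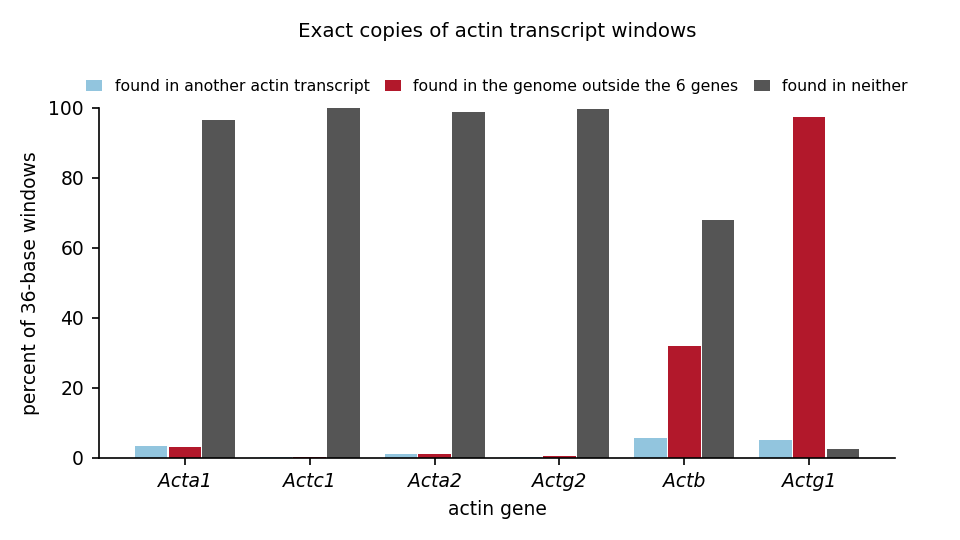
Percent of 36-base windows of each actin transcript (vertical axis) that recur exactly in another actin transcript, that recur in the mm9 genome outside the 6 genes, or that do neither, for each gene on the horizontal axis. Only 2.56% of windows had no other copy in Actg1 and 67.9% in Actb, while the share was 96.5% or more in the 4 muscle actin genes.

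The study's own PCR primers for Acta1 show how close the family is, and are printed for that reason.
Acta1_F: caccagggtgtcatggtagg
Acta1_R: tggtacggccggaagcatag
Both matched Acta1 without a mismatch. The forward primer differed from Actc1 at 1 base, from Actb and Actg1 at 2, from Actg2 at 3 and from Acta2 at 4. The reverse primer, which matches chr8:126417049-126417068 in mm9, differed from Actg2 at 1 base, from Acta2 and Actb at 4 and from Actc1 and Actg1 at 5.

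Levels are given as FPKM, a fragment number scaled for transcript length and sequencing depth, which allows genes to be compared per length, each with the 95% interval that was deposited with it. The interval covers counting and assignment error within 1 library and no variation between cultures. No difference between a total RNA and a polyA library is read as a change, since the time in DM, the transfection and the library preparation differed as well.

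Acta1, the main actin of adult skeletal muscle, was at 12.1 FPKM (11.5 to 12.8) in MB and 479 (475 to 483) in MT, and at 1009 (967 to 1052) in si-NC against 1537 (1472 to 1602) in si-hnRNPL. It was thus a modestly expressed gene in MB, ranked 5943 among 23469 named loci of 300 bp or more, and ranked 23 in MT. Actc1, the cardiac alpha-actin that embryonic skeletal muscle also makes, was at 1.05 FPKM (0.847 to 1.25) in MB and 223 (220.0 to 226) in MT, and at 364 (358 to 370.0) in si-NC against 510 (501 to 518) in si-hnRNPL. The MB value of Actc1 rests on about 107 fragments, as its interval implies, and ranked 11005, while in MT the gene ranked 141. Both striated genes were near the bottom of the family in MB and neither interval came near its MT counterpart.

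Acta2, the alpha-actin of vascular smooth muscle, was at 437 FPKM (434 to 440) in MB and 367 (364 to 369) in MT, and at 549 (544 to 554) in si-NC against 753 (746 to 761) in si-hnRNPL. It stayed among the 86 highest ranked named loci in each of the 4 libraries. Actg2, the gamma-actin of enteric smooth muscle, was at 225 FPKM (222 to 228) in MB and 39.8 (38.5 to 41.0) in MT, and at 56.9 (54.4 to 59.3) in si-NC against 67.2 (63.9 to 70.6) in si-hnRNPL. It moved from rank 227 in MB to rank 1596 in MT. The pair therefore parted between MB and MT, although their proteins differ at 2 of 376 aligned residues.

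Actb, the cytoplasmic beta-actin, was at 1194 FPKM (1188 to 1200) in MB and 591 (587 to 594) in MT, and at 1229 (1220 to 1238) in si-NC against 1319 (1307 to 1331) in si-hnRNPL. Actg1, the cytoplasmic gamma-actin, was at 788 FPKM (783 to 793) in MB and 395 (392 to 398) in MT, and at 1397 (1340 to 1454) in si-NC against 1521 (1458 to 1584) in si-hnRNPL. Actb ranked 4 in MB and 10 in MT, so it stayed one of the most abundant transcripts on either side of differentiation. In the polyA libraries the intervals of Actg1 and Acta1 were wide for such levels, corresponding to 2343 to 2369 and 2253 to 2262 implied fragments, against 71981 and 50067 for Actb.

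**Figure D3:**
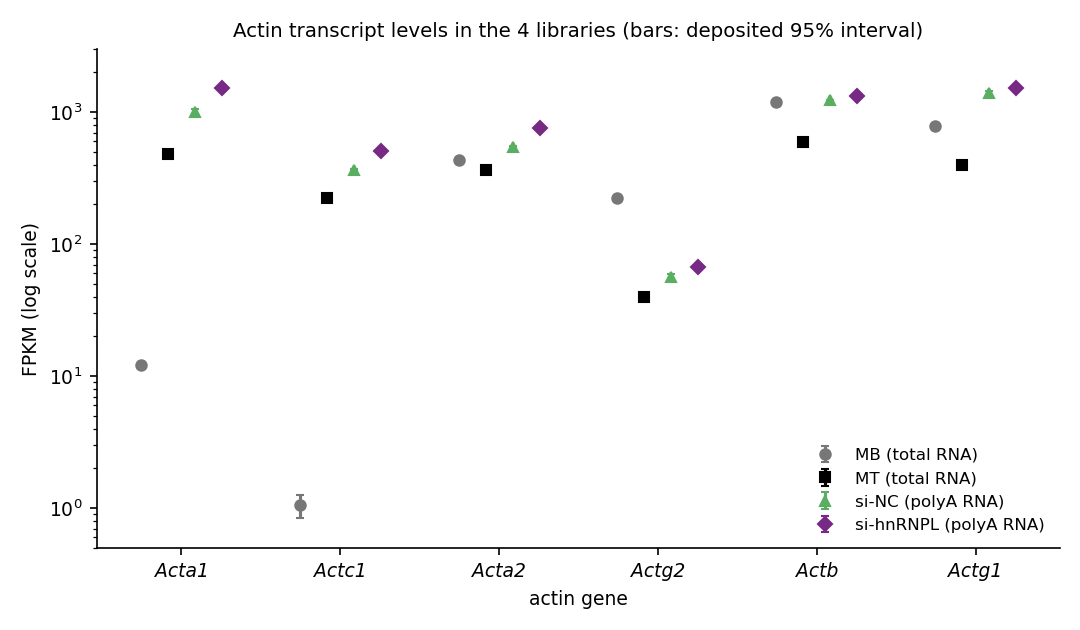
FPKM of each actin gene in the 4 libraries on a log scale, with 1 point per library and bars for the deposited 95% interval, mostly smaller than the symbol. Actc1 was at 1.05 FPKM in MB and 223 in MT, whereas Acta2 was at 437 and 367.

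The order of the levels changed with the library. In MB it was Actb, Actg1, Acta2, Actg2, Acta1 and Actc1. In MT it was Actb, Acta1, Actg1, Acta2, Actc1 and Actg2, in si-NC Actg1, Actb, Acta1, Acta2, Actc1 and Actg2, and in si-hnRNPL Acta1, Actg1, Actb, Acta2, Actc1 and Actg2. All neighbours in these orders had intervals that did not overlap, except Acta1 (1537) and Actg1 (1521) in si-hnRNPL, whose intervals did. The place of Actg1 in each order remains uncertain, because of the copies of its sequence in the genome.

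Within the summed FPKM of the family, which does not depend on how a library is scaled, the striated genes took 0.496% (0.470 to 0.522) in MB and 33.5% (33.3 to 33.7) in MT. Their share was 29.8% (29.1 to 30.6) in si-NC against 35.9% (35.0 to 36.7) in si-hnRNPL. In both comparisons the intervals were apart, though they may not cover error in the level of Actg1, whose sequence has many genomic copies. The cytoplasmic genes held 74.6% in MB, 47.1% in MT, 57.0% in si-NC and 49.8% in si-hnRNPL, and the smooth muscle genes 24.9%, 19.4%, 13.2% and 14.4% in the same order. The family thus went from mostly cytoplasmic transcripts in MB to a mixture in which the 4 muscle genes together made up 52.9% in MT, against 25.4% in MB.

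**Figure D4:**
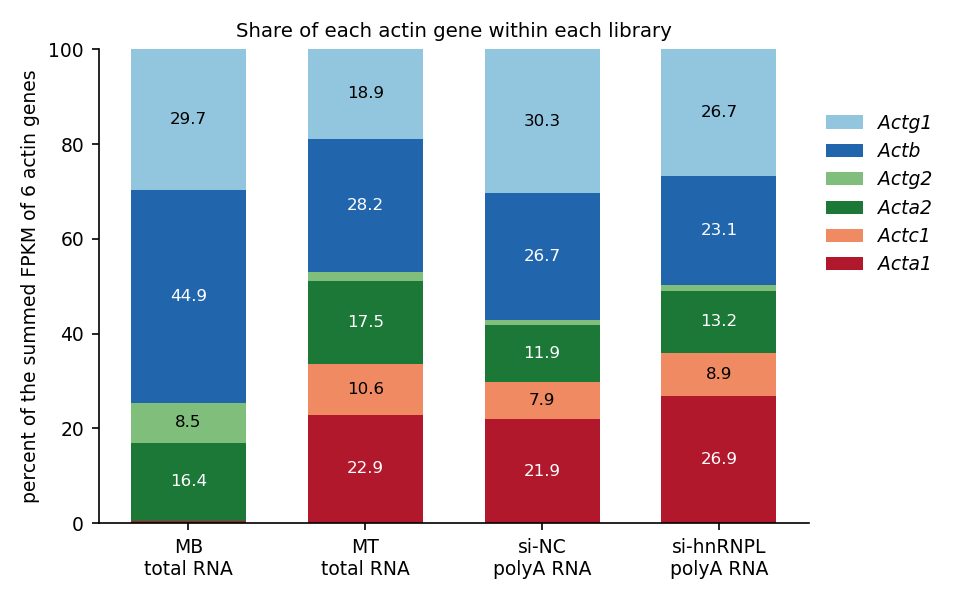
Percent of the summed FPKM of the 6 actin genes that each gene contributed (vertical axis, from 0 to 100), stacked for each of the 4 libraries; shares under 4% are drawn but not written. Acta1 and Actc1, at the base of each bar, are almost invisible in MB (0.496% together) and reach 33.5% in MT, 29.8% in si-NC and 35.9% in si-hnRNPL.

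Ratios between members of a pair also shifted. Actc1 stood at 0.0865 of the FPKM of Acta1 in MB (0.0708 to 0.106), 0.465 in MT (0.458 to 0.472), 0.361 in si-NC (0.345 to 0.377) and 0.332 in si-hnRNPL (0.317 to 0.347). Acta1 exceeded Actc1 in every library. Actg2 stood at 0.516 of Acta2 in MB (0.508 to 0.524) and 0.108 in MT (0.105 to 0.112), and at 0.104 and 0.0892 in si-NC and si-hnRNPL. The ratio of Actb to Actg1 was 1.52 in MB (1.5 to 1.53) and 1.5 in MT (1.48 to 1.51), and 0.880 in si-NC (0.844 to 0.917) and 0.867 in si-hnRNPL (0.831 to 0.905). Within each comparison the intervals of that ratio overlapped, and it lay on different sides of 1 in the total RNA and polyA libraries; library type, time in DM and transfection cannot be told apart here, and the many genomic copies of Actg1 sequence bear on that ratio in a way that was not tested. Acta1 stood at 0.0102 of Actb in MB, 0.812 in MT, 0.821 in si-NC and 1.17 in si-hnRNPL.

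The comparison of MT with MB asks what changed with differentiation. Changes are log2 of the ratio of FPKM + 1, and a gene was called at an absolute value of 0.58, a fold of 1.5. Of the 6 genes, 2 were higher in MT, 3 were lower and 1 was neither. Over all named entries 7.81% were higher and 13.7% lower, and among the 10791 that reached 1 FPKM in MB and in MT 12.0% were higher and 28.9% lower. The median was -0.62 over the 6 genes and -0.23 over those 10791, so the genes called lower should be read against a table in which lower values were common. In RNA from a whole culture, fewer cells of a type and less RNA per cell cannot be told apart.

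Actc1 was higher by 6.77 on the log2 scale (6.63 to 6.92), the third highest change among the 10791 entries. The ratio of its FPKM was 212 (175 to 258), which the log2 value understates because 1 was added to an MB level of 1.05. Acta1 was higher by 5.19 (5.12 to 5.27), the seventh highest, with an FPKM ratio of 39.5 (37.4 to 41.7). Genes under 1 FPKM in MB were left out of both ranks. Muscle genes left out in this way included Tnnt3 (7.52), Myog (7.21) and Myh3 (6.79), which were above Actc1. Tmem8c (6.75) and Ckm (6.06), also left out, were below it. The striated genes together moved from 13.2 to 702 FPKM.

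Acta2 had a log2 change of -0.25 (-0.26 to -0.24) and was not called. Its sign depended on the scaling, with -0.02 after centring on the median and 0.32 after scaling both libraries to the same summed FPKM. Actg2 was lower by a log2 change of -2.47 (-2.52 to -2.42), with 17.7% of its MB FPKM left in MT, the 117th lowest among the 10791. Actg2 was the 1 member outside the striated pair that was called under every scaling.

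Actb changed by -1.01 (-1.03 to -1.0) and Actg1 by -1.0 (-1.01 to -0.98), with 49.5% and 50.1% of their MB FPKM in MT. The 2 cytoplasmic genes moved almost in parallel. Scaling to the same sum left them at -0.44 and -0.42, below the call, although a single entry, Mir5098, made up 12.9% of the MB sum with an interval reaching 0. Without that entry they were at -0.64 and -0.62 and were called. The summed FPKM of the family was 2657 in MB and 2094 in MT, a log2 ratio of -0.34 that became 0.23 under the first of these scalings and 0.03 under the second.

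The comparison of si-hnRNPL with si-NC asks what followed when hnRNPL was targeted. Hnrnpl itself was at 95.1 FPKM (92.7 to 97.5) in si-NC against 85.9 (83.1 to 88.7) in si-hnRNPL, so its polyA transcript was lower in the targeted library by less than the fold called. The paper examined the knockdown by Western blot, so on protein, which these libraries do not measure. All 6 actin genes were higher in si-hnRNPL, each with an interval above 0, but only Acta1 passed the call. Over all named entries 0.688% were higher by that fold, 0.416% lower and 33.1% above 0, and among the 11090 that reached 1 FPKM in both of these libraries 1.14% were higher, 0.757% lower and 47.8% above 0. The median was 0.35 over the 6 genes and -0.01 over those 11090.

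Acta1 had a log2 change of 0.61 (0.52 to 0.69), an FPKM ratio of 1.52 (1.43 to 1.62), and stood at rank 107 of 11090. The call lay close to its limit, which the interval spanned. Actc1 had a log2 change of 0.48 (0.45 to 0.52) and Acta2 one of 0.46 (0.44 to 0.48), at ranks 214 and 265. These 3 alpha-actin genes stood above the others. Actg2 was at 0.24 (0.14 to 0.33), Actg1 at 0.12 (0.04 to 0.21) and Actb at 0.10 (0.09 to 0.12).

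The size of these changes moved with transcript length and GC content in the table as a whole. Over 9811 protein-coding genes the log2 change had a rank correlation of -0.45 with transcript length and 0.43 with GC content, as a description across genes of 1 pair of libraries. After the dependence was subtracted the changes were 0.44 in Acta1, 0.42 in Acta2, 0.38 in Actc1, 0.11 in Actg2 and 0.03 in Actb and Actg1, and no member was called. Scaling both libraries to the same summed FPKM gave 0.50 in Acta1 and -0.0005 in Actb, so that 5 of 6 genes were above 0.

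**Figure D5:**
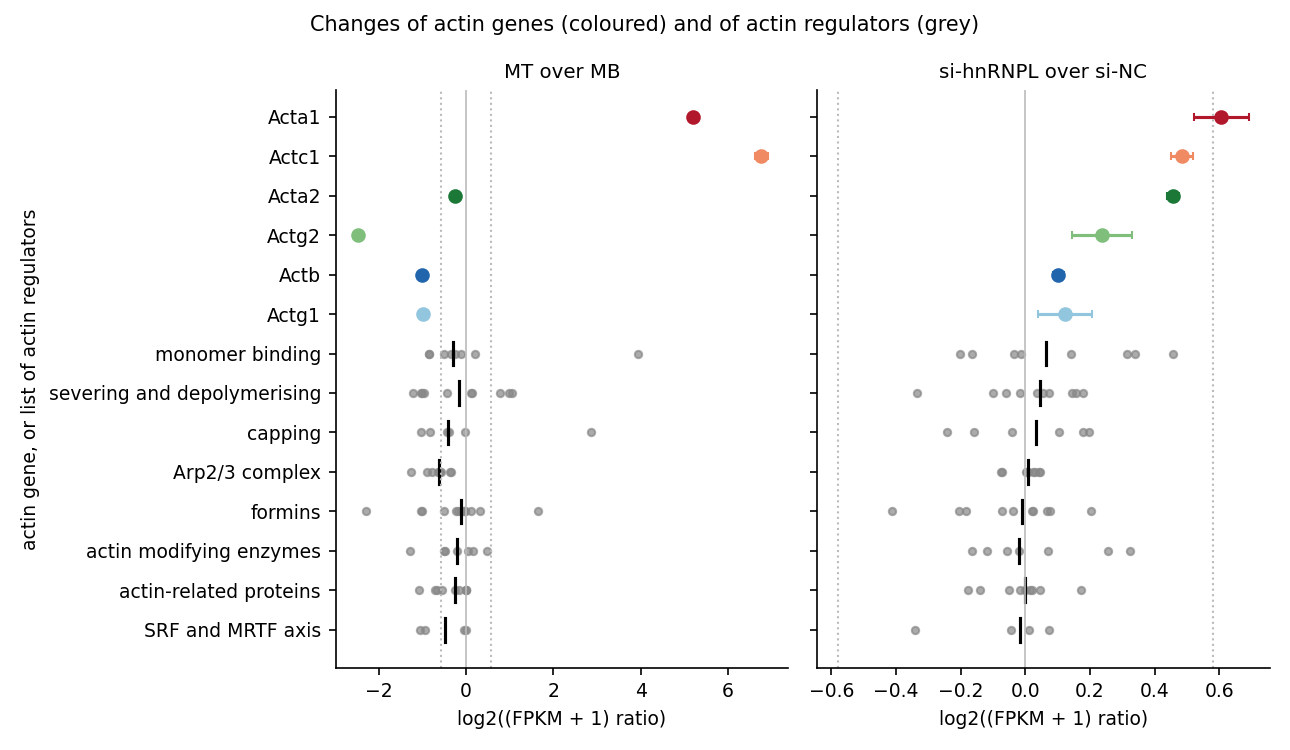
Log2 change of FPKM + 1 (horizontal axis, a different range in each panel) of each actin gene with its interval, and of each measured gene in 8 lists of actin regulators (grey points, with a black line at the median), for MT over MB at the left and si-hnRNPL over si-NC at the right; dotted lines mark the call. Acta1 and Actc1 lie to the right of every regulator in both panels; the sign of Acta2 in MT over MB and that of many regulators depend on the scaling, as given in the text.

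Genes that act on actin were taken from 8 lists of 68 symbols. In MT over MB, 66 were measured, of which 6 were higher and 24 lower (9.09% and 36.4%), with a median of -0.36. Over all named entries, likewise unfiltered, 7.81% were higher and 13.7% lower. Among regulators that reached 1 FPKM in MB and in MT, which were fewer than those 66, 4 were higher and 24 lower, with a median of -0.44. The 10791 entries that passed the same filter had 12.0% higher, 28.9% lower and a median of -0.23. The counts over all 66 depended on the scaling. They were 7 and 17 after centring and 9 and 13 after scaling to the same sum without Mir5098. With that entry they were 11 and 4, and the median was 0.06. The formins Diap1, Diap2 and Diap3 had no entry under these symbols in the polyA libraries. In si-hnRNPL over si-NC, 63 were measured, 0 were called in either direction, and the median was 0.01, between -0.41 and 0.46. The largest of these values, 0.46 in Tmsb10, was close to that of Acta2.

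The Arp2/3 complex, which starts branched filaments, had the most uniform change in MT over MB. All 9 subunit genes were below 0 and 7 of 9 were called lower, with a median of -0.61; after centring 9 of 9 were still below 0 with 2 called, and after scaling to the same sum 7 of 9 were below 0 with 1 called. Arpc5, a subunit, went from 90.4 to 37.0 FPKM, the lowest change of the list at -1.27.

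The counts for each list, the Arp2/3 complex included, should be read beside 7.81% higher and 13.7% lower over all named entries. Among entries that reached 1 FPKM in MB and in MT these shares were 12.0% and 28.9%. Among 8 genes that bind actin monomers 1 was higher and 2 lower, or 2 and 0 after scaling to the same sum. Tmsb10, a thymosin that sequesters monomers, was at 337 FPKM in MB and 390.1 in MT (0.21), and Cap1, which recycles monomers, was at 146 and 80.3 (-0.85). Among 10 genes that sever or depolymerise filaments, or control those that do, 3 were higher and 4 lower. Scaling to the same sum gave 4 and 1. Gsn, gelsolin, was at 118 FPKM in MB and 246 in MT (1.05), whereas Wdr1, a cofactor of cofilin, was at 230 and 97.6 (-1.23).

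Of the 6 genes of the list for capping, 1 was higher and 2 lower, or 1 and 0 after scaling to the same sum. Capg, which caps filament ends, was at 177 FPKM in MB and 85.6 in MT (-1.04). Of 13 formins, which extend unbranched filaments, 1 was higher and 3 lower, or 2 and 1 after scaling to the same sum. Daam2 was at 2.68 and 10.5 FPKM (1.65) and Diap3 at 50.5 and 9.40 (-2.31), the lowest change among the regulators. Of 7 enzymes that modify actin or reverse such a change 0 were higher and 1 lower, or 2 and 1 after that scaling. Nat6, which acetylates the amino terminus of actin, was at 4.63 and 6.85 FPKM (0.48), and Mical2, which oxidises actin, at 34.4 and 13.5 (-1.29). The genes called higher that the naming rule left out because they were under 1 FPKM in MB, and that were named after their values were seen, were Cap2 at 0.742 and 25.8 FPKM (3.94) and Tmod1, the tropomodulin of thin filament ends, at 0.516 and 9.98 FPKM (2.86).

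Of 9 actin-related proteins 0 were higher and 3 lower, with 1 lower after centring and 0 after scaling to the same sum. Actl6a, a subunit of chromatin remodelling complexes, was at 59.7 FPKM in MB and 27.7 in MT (-1.08). Actbl2 and Actl6b were listed at or near 0 in all libraries. The 6 SRF and MRTF symbols stand for 4 genes, since Mrtfa and Mrtfb are other names of Mkl1 and Mkl2. All 4 genes were listed, of which 0 were higher and 2 lower, with 2 lower after centring and 0 after scaling to the same sum. Mkl1, the MRTF-A coactivator, was at 16.8 FPKM in MB and 7.57 in MT (-1.06), and Srf, named after its values were seen, at 28.1 and 14.2 (-0.94). In si-hnRNPL over si-NC those changes were 0.01 and 0.07.

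Markers of the cells that use these actins were read in the same libraries. Of the 9 skeletal muscle symbols 8 were listed in each table, since Mymk and Tmem8c are names of the same gene. The 8 summed to 151 FPKM in MB, 1165 in MT, 1473 in si-NC and 1887 in si-hnRNPL. In MT over MB 7 of 8 were called higher and in si-hnRNPL over si-NC 1 of 8 was, Ckm, muscle creatine kinase, at 0.71, beside a median of 0.39 over the list. In si-hnRNPL over si-NC 7 of 8 skeletal markers were above 0, the exception being Myf5 at -0.40. So were 5 of 6 smooth muscle markers, with Lmod1 called at 0.60 and Tagln, not called, at 0.55. The intervals of Smtn (-0.02 to 0.19) and Cnn1 (-0.11 to 0.37) spanned 0. Des is in both lists. Of the other markers, 0 of 6 cardiomyocyte, 2 of 4 fibroblast, 0 of 2 endothelial and 1 of 2 leukocyte ones were above 0. However, 5 of 6 cardiomyocyte, 2 of 2 endothelial and 2 of 2 leukocyte markers were under 1 FPKM in both polyA libraries, so their signs say little. Nppa and Myl7 were listed at 0 in both. Nppb, a cardiomyocyte marker, was called lower at -0.68 (-1.21 to -0.16). Over all named entries 33.1% were above 0, and 47.8% of those that reached 1 FPKM in both libraries. The alpha-actin genes were above 0 as well. Whether a difference in how far the cultures had differentiated had a part was not tested here. The paper reports, from MyHC in knockdown cells, that hnRNPL represses myoblast differentiation.

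Smooth muscle markers were present although the line is skeletal. The 6 symbols, of which Des is shared with skeletal muscle, summed to 411 FPKM in MB and 293 in MT, and to 557 in si-NC against 670 in si-hnRNPL. Without Des the sums were 312 and 98.0 in MB and MT, and 145 and 198 in si-NC and si-hnRNPL. In MT over MB 1 of the 6 was called higher, 2 lower and 3 neither. Cnn1, calponin, was at 51.9 FPKM in MB and 1.35 in MT and Tagln, transgelin, at 239 and 78.6, the 2 called lower, while Des, desmin, was at 98.7 and 195 and was called higher. Smtn and Lmod1 were at -0.25 and -0.26 on the log2 scale. Myh11, the smooth muscle myosin heavy chain, was at 0.0994 FPKM or less in all 4 libraries. The 6 cardiomyocyte markers summed to between 1.86 and 4.17 FPKM, the 2 endothelial ones to 0.0301 or less, and the 2 leukocyte ones to between 0.405 and 1.13. The 4 fibroblast markers summed to 20.4 FPKM in MB, 111 in MT, 150 in si-NC and 154 in si-hnRNPL, and Postn went from 3.55 to 91.7 between MB and MT.

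The genes most alike to each member were found by the distance between their 2 log2 changes, over 6115 genes that reached 10 FPKM in a total RNA library and in a polyA library. Both changes of a gene enter, so likeness is over 2 values from 4 libraries. For the striated genes the choice rested on the added 1, because the nearest genes were under 1 FPKM in MB. Acta1 was nearest to Cox8b, a muscle subunit of cytochrome c oxidase, at a distance of 0.101, and to Ctrb1, at 0.133, but their FPKM ratios of MT over MB were 346 and 594 against 39.5 in Acta1. With 0.1 added in place of 1 they lay 2.27 and 2.60 from Acta1. Actc1 was nearest to Myh3, the embryonic myosin heavy chain, at 0.125, with an FPKM ratio of 1192 against 212, and Myh3 lay 1.64 away with 0.1 added. Tnni2, the fast troponin I, was at 0.179 from Actc1, or at 0.0698 with 0.1 added, and its FPKM ratio was 217. Where 1 FPKM was required in all 4 libraries, 0 genes lay within 0.2 of either striated member.

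Actg2 had 3 genes within 0.2, the nearest being Gm2115 at 0.171 and Ass1, argininosuccinate synthase, at 0.174. Acta2 had 83, led by Fam96b at 0.0157 and Ndufs7, a subunit of respiratory complex I, at 0.0440. Actb had 349 and Actg1 had 351, led by Pgk1, a glycolytic kinase, at 0.0118 and Psmd5 at 0.0151 for Actb, and by Rps27l at 0.00696 and Pagr1a at 0.0139 for Actg1. The first gene named for Acta2, Actb and Actg1 was also the nearest with 0.1 added. The cytoplasmic genes lay 0.0281 apart. Acta1 and Actc1 were 1.58 apart and Acta2 and Actg2 2.23.

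Assembled transcript units without a gene symbol were sought within 5 kb of the loci in the total RNA tables. There were 7, around 5 of the 6 genes, and none overlapped a member. Each was below the actin gene it lay beside. The highest, 309 bp from Actg1 at chr11:120206194-120206694, was at 4.19 FPKM (3.42 to 4.96) in MB and 1.21 (0.804 to 1.61) in MT, the 1 unit past the call. The 3 units beside Actb were between 0.201 and 0.564 FPKM in MB and between 0.0654 and 0.233 in MT. The unit near Acta1 was listed at 0 in MB and at 0.166 FPKM in MT, from about 10 fragments. Those near Acta2 and Actg2 were at 0.0238 and 0.317 FPKM in MB and at 0.294 and 0.268 in MT. Of the named neighbours, C130080G10Rik, 1584 bp from Actc1, was listed at 0 in MB and at 1.46 FPKM (1.26 to 1.65) in MT, and Nup133, a nuclear pore gene 2347 bp from Acta1, was at 16.5 and 6.94. The neighbour of Acta1 was lower where Acta1 was higher, and that of Actc1 was above 0 in MT alone. The gene 0610009L18Rik, 193 bp from Actg1, was at 0.972 FPKM (0.652 to 1.29) in MB and 2.37 (1.88 to 2.86) in MT, past the call, where Actg1 was lower. Stambpl1 ends 7 bp from Acta2 and was at 12.6 FPKM in MB and 9.17 in MT, both well under the levels of Acta2.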

How the data were processed

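Total RNA depleted of rRNA (MB, MT; strand-specific libraries) and polyA RNA (si-NC, si-hnRNPL) were measured in 1 library each. The authors dropped reads under 36 bp, aligned the others to mm9 using TopHat and estimated abundance using Cufflinks; the deposited values are FPKM with a 95% interval. The handling of multiply mapped fragments and the use of strand in counting are not given in the sources used here.

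From these tables log2((FPKM + 1) ratio) was computed, intervals were combined in quadrature, and changes were called at 0.58. Implied fragments were N = (2 x FPKM / (upper bound - FPKM)) squared and gave 59960176 (MB), 54442423 (MT), 21341051 (si-NC) and 14592480 (si-hnRNPL) over all entries. With 1 library per condition no test was run. Named were all 6 members, Hnrnpl, for each regulator list the largest rise and fall in MT over MB among genes that reached 1 FPKM in MB and MT, and the 2 genes nearest to each member. The members and lists were chosen with earlier results of these data known. Alternatives were pseudocounts of 0.1 and 0.01, a fold of 2, an FPKM filter, centring and scaling; scaling without Mir5098, scaling of the regulator lists, the marker sum without Des, other settings for the nearest genes and the correction for length and GC content were chosen after seeing the data. Transcripts came from GENCODE vM1 (mm9), promoters from RefSeq and primers from the study's supplementary table. Only the log2 changes, their intervals and the calls were tested on simulated data, drawn from si-NC with counting noise and no variation between cultures. The calculations used Python 3.11.15, numpy 2.4.6, pandas 2.3.3, scipy 1.17.1, matplotlib 3.10.9 and Biopython 1.88. GRO-seq and CLIP-seq were not analysed here.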

Additional observations from a re-analysis of the deposited data

How the results depend on the processing

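No paired analysis was possible because each condition had 1 library, and for the same reason none could be left out. Pseudocounts of 0.1 and 0.01, centring on the median and the filter on FPKM left the number of actin genes called in MT over MB at 2 higher and 3 lower, and a fold of 2 gave 2 higher and 2 lower, Actg1 losing its call. Scaling to the same summed FPKM over loci of 300 bp or more shifted MT over MB by 0.57 (0.37 without Mir5098) and si-hnRNPL over si-NC by -0.10. In MT over MB it left 1 actin gene lower, and for the regulators gave 11 higher and 4 lower (13 lower without Mir5098). In si-hnRNPL over si-NC, 0 actin genes were called higher under that scaling with or without Mir5098, at a fold of 2, or after the correction for length and GC content.

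The share of the striated genes in MB, MT, si-NC and si-hnRNPL was 0.371%, 25.3%, 12.5% and 14.6% of implied fragments. Implied fragments are not divided by transcript length, and they are depressed for genes with wide intervals. The transcripts of Acta1 and Actc1 have 1446 and 1473 bases, against 1920 and 1952 in Actb and Actg1. With the smooth muscle genes added the share of summed FPKM was 25.4%, 52.9%, 43.0% and 50.2%. At the bounds that lower it the striated share of summed FPKM was 0.461%, 33.1%, 28.6% and 34.5%, and at those that raise it 0.532%, 33.9%, 31.0% and 37.2%. Units overlapping a locus numbered 0, against 7 within 5 kb. Of the other values, 89 moved by more than their own interval, or 0.1 for a median, under an alternative and 41 did not; no called value changed sign. Depth limits Actc1 in MB most, at about 107 fragments.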
